A study of Homo sapiens with 18 samples.

Results

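The 10 genes described here were ATF4, its stress partners and targets DDIT3, ASNS, CHAC1 and TRIB3, and the serine and mitochondrial one-carbon genes PHGDH, PSAT1, PSPH, SHMT2 and MTHFD2. They were chosen by name, as genes of the ATF4 stress response and of serine synthesis, out of the 28395 genes in each RNA-seq table, and all 10 were present and passed the filter on low values in each comparison. RNA-seq, and ATAC-seq, which measures open chromatin, were each done on 3 libraries per line of K562, a human chronic myelogenous leukemia cell line. The control line is called V-K562, the line with wtBASP1 is B-K562, and G-K562 carries BASP1-G2A, a mutant that cannot be myristoylated at its N terminus. Stably transfected derivatives were kept under G-418 as selected pools, so each line is 1 pool, and its 3 libraries per assay are biological replicates prepared separately from that pool. The study asked which effects of BASP1, a transcriptional corepressor, depend on its lipidation.

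ATF4 is a bZIP transcription factor whose mRNA is translated more when eIF2 alpha kinases respond to amino acid shortage, endoplasmic reticulum stress, heme shortage or viral RNA, so that its protein level is not set by its mRNA alone. ATF4 pairs with C/EBP family proteins at composite elements and is known to raise genes for amino acid synthesis, amino acid uptake, redox balance and the stress response itself. Among the genes known as its targets are those that make serine from a glycolytic intermediate and those that pass the carbon of serine to mitochondrial folate.

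The C/EBP-ATF composite element has the letters TGATGNAA, and was searched on both strands in the RefSeq promoters (250 bases before to 50 bases after a start, GRCh38.p14) and in the accessible regions of the ATAC-seq data (GRCh38). It was in 3.62% of all 35116 promoter windows, and in those of ASNS and CHAC1 among the 8 members with an entry (all except PSPH and SHMT2). In the accessible regions at the starts of those 8 members, taken whole and with a peak in all 9 libraries, it was in 7 of 10 regions, but in the 300 bases around their summits in 2 of 10, against 4.85% of all 85549 such summit windows. Of all accessible regions within 10% of their lengths, between 5.65% and 6.75% held it when taken whole, and of those at gene starts between 2.65% and 5.04%. The start regions of PSPH and SHMT2 were left out of the counts for members. The upstream sequence of CHAC1, the member with the largest difference in RNA level, is shown whole from the RefSeq window up to the base before its first exon (chr15:40953221-40953437, plus strand), with the element in capitals. The other lines show 30 bases around each match in a region near a start, on the strand of the gene, to show how the members share these letters, again with the element in capitals.
CHAC1 upstream: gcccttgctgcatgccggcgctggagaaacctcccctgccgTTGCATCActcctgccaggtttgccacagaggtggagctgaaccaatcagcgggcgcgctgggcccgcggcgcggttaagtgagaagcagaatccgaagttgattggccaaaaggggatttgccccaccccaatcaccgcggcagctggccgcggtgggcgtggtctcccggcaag
ASNS: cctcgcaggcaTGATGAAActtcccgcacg
DDIT3: gttgccaaacaTTGCATCAtccccgccccc
PHGDH: cgcccctcgtcTGATGCAAgactgctccgt
PSAT1: ccctaggcgctTTGCATCAgcgtgcacagc
MTHFD2: gctgctgcagcTGATGAAAtcgcggagccg
TRIB3 repeat: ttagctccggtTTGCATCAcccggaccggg
TRIB3 intron: gcgcttgcgctTGATGTAAcccgccctcat

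These windows lie at chr7:97872458-97872487 (ASNS, minus strand, in an exon of a longer transcript), chr12:57520802-57520831 (DDIT3, minus strand, in an intron of the longer transcript) and chr1:119712786-119712815 (PHGDH, plus strand, exon). The windows of PSAT1 at chr9:78297381-78297410 and MTHFD2 at chr2:74199202-74199231 are in introns, on the plus strand. The TRIB3 repeat window was found 3 times with the same 30 letters, at chr20:380881-380910, chr20:380914-380943 and chr20:380947-380976, in an exon, and the TRIB3 intron window is at chr20:382139-382168. Relative to the nearest annotated start, the element began 68 bases before that of ASNS, 176 before that of CHAC1 and 303 before that of DDIT3. It began 317 bases after the start of PSAT1, 650 after that of MTHFD2, 863 after that of PHGDH, and 263, 296 and 329 after that of TRIB3. No match was found in the region at the ATF4 start, the upstream one of DDIT3 or the PHGDH start region itself, which says only that these letters are not in those windows. A match is a description of the sequence and not of binding.

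The deposited RNA-seq values, called normalised read counts here, are read counts divided by the authors' size factors and rounded, so their sums of 32074895 to 33229588 per library do not show sequencing depth. BASP1 was at 7, 5 and 7 in the V-K562 libraries, between 6189 and 6849 in the B-K562 libraries and between 8124 and 12538 in the G-K562 libraries. The 7 erythroid genes used as markers of K562 cells (GATA1, TAL1, KLF1, HBG1, HBG2, HBZ and TFRC) were all expressed, and their summed level was 84253 to 94462 in the V-K562 libraries, 149403 to 152563 with wtBASP1 and 46919 to 53154 with BASP1-G2A. Against V-K562 cells, all 7 were higher in B-K562 and 6 were lower in G-K562 cells by the adjusted p-value (limma-trend, threshold 0.05). The part of these differences in the results on the members was not tested. Of 6 markers of other cell types, MS4A1 was at 0 in every library, CD3E and CD14 were between 12 and 29, PECAM1 between 302 and 624, COL1A1 between 589 and 1297 and EPCAM between 1129 and 1731, and the summed level of all 6 was 3132 to 3184 in the V-K562 libraries, 2560 to 2661 with wtBASP1 and 2566 to 2806 with BASP1-G2A. In such bulk samples fewer cells expressing a gene and less RNA per cell cannot be told apart.

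Comparing B-K562 with V-K562 cells, the RNA level of all 10 members was lower in B-K562 cells (limma-trend on log2(value + 1), adjusted p at most 0.05), and that of 7 was at least 2-fold lower. Among all 14958 genes tested, 14.1% were lower by both criteria and 37.2% by the adjusted p-value alone, and 6.46% and 38.6% were higher. The median log2 fold change of the members was -1.31, and that of all genes tested 0.01. The B-K562 libraries did not overlap the V-K562 libraries for any member, which was also so for 38.1% of all genes in this direction. The falls ran from 1.52-fold for PSPH to 14.8-fold for CHAC1. These members were chosen with earlier results of these data known, so the counts describe them and are not a test of the set.

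**Figure D1:**
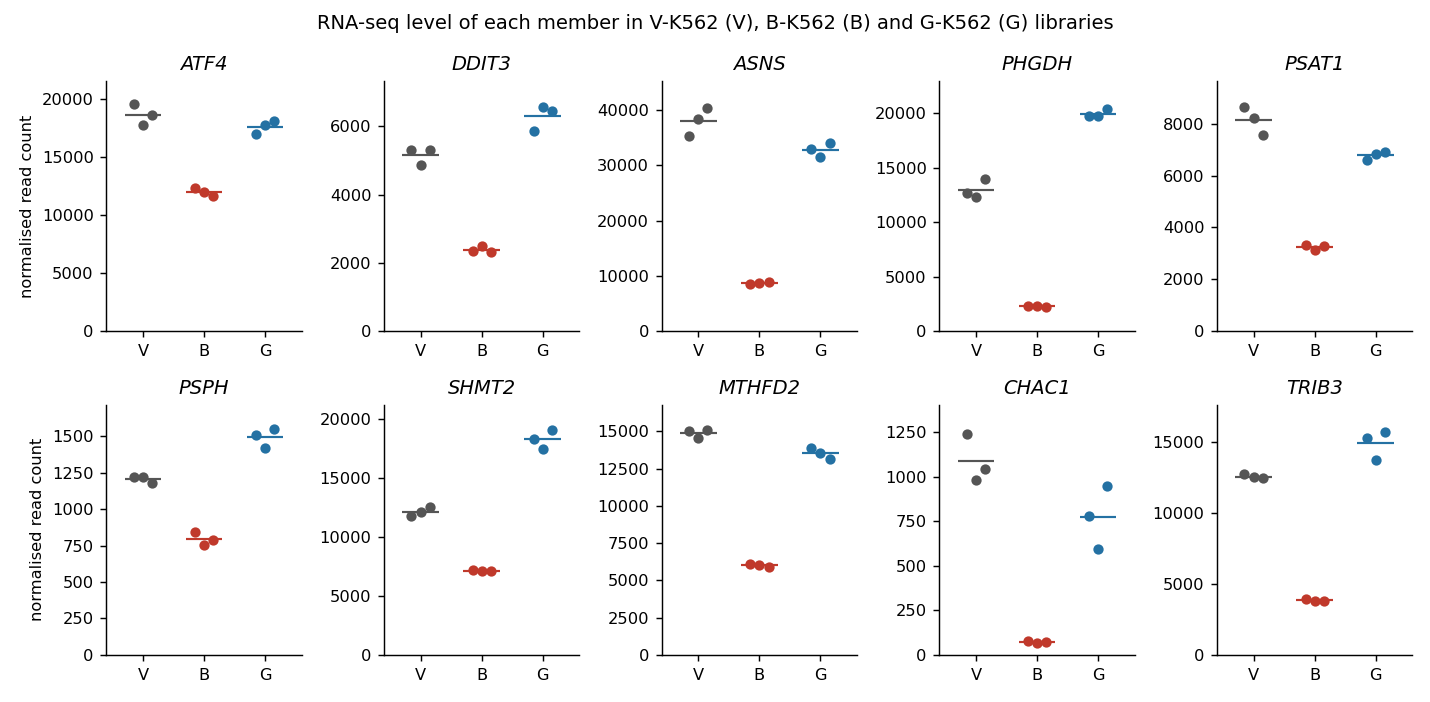
Normalised read count of each member (vertical axes, from 0) in the 3 libraries of each line (points), with the mean of each line as a bar. The V-K562 and G-K562 values are those of 1 table, and the B-K562 values of the other were multiplied by 1.017, the mean ratio of the V-K562 libraries in both. The 3 B-K562 libraries sit below all V-K562 and G-K562 libraries in all 10 panels.

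Per kilobase of merged exon, the highest mean level in V-K562 cells was that of ASNS at 14792, followed by ATF4 at 9054 and MTHFD2 at 6408, on the scale of the table shared with B-K562. PHGDH, TRIB3, SHMT2, DDIT3 and PSAT1 lay between 3550 and 4482, CHAC1 was at 686 and PSPH at 358. In B-K562 cells the same measure put ATF4 highest at 5814 and ASNS second at 3372, and CHAC1 lowest at 45.7. In G-K562 cells ASNS was at 13014, ATF4 at 8698 and PHGDH, next in order, at 6999.

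ATF4 itself (Entrez 468, chr22:39520559-39522686, plus strand, 2 exon blocks) was at 19276, 17533 and 18251 in the V-K562 libraries and at 12127, 11757 and 11472 in the B-K562 libraries. It was lower in B-K562 cells by 1.56-fold, a log2 fold change of -0.64 (SE 0.05, limma-trend adjusted p = 5.0e-08). Among the members this estimate was the second smallest after that of PSPH, at -0.60 (SE 0.06), though differences between members were not tested. In the G-K562 libraries it was at 17011, 17760 and 18119, beside 19571, 17802 and 18621 for V-K562 in the same table. These ranges overlapped and the log2 fold change of -0.08 (SE 0.06) did not pass the test (limma-trend adjusted p = 0.23), whereas G-K562 was above B-K562 cells by 0.56 (SE 0.05, adjusted p = 9.8e-08).

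DDIT3 (Entrez 1649, chr12:57516588-57521698, minus strand), which encodes CHOP, the stress factor linked to cell death under unresolved endoplasmic reticulum stress, was at 5220, 4804 and 5216 in V-K562 and at 2321, 2454 and 2274 in B-K562 libraries. That is 2.16-fold lower, at -1.11 on the log2 scale (SE 0.05, limma-trend adjusted p = 3.9e-10). The G-K562 libraries, at 5867, 6573 and 6445, were all above the V-K562 values of their table, at 5300, 4877 and 5322. The rise of 0.28 (SE 0.06, adjusted p = 0.0018) was small beside the difference of 1.40 between G-K562 and B-K562 cells.

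TRIB3 (Entrez 57761, chr20:380629-397559, plus strand) encodes a pseudokinase that binds and restrains AKT and also ATF4, and so acts as a brake in this response. It was at 12543, 12350 and 12209 in V-K562 libraries, at 3911, 3712 and 3760 in B-K562 libraries and at 15316, 13755 and 15736 in G-K562 libraries. The log2 fold change from V-K562 to B-K562 cells was -1.70 (SE 0.04, limma-trend adjusted p = 2.4e-12) and that to G-K562 cells 0.25 (SE 0.06, adjusted p = 0.0040). The lowest G-K562 library was above the highest V-K562 library of the same table, at 12735.

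CHAC1 (Entrez 79094, chr15:40953438-40956519, plus strand), a gamma-glutamyl cyclotransferase that breaks down glutathione, showed the largest difference. It was at 1222, 968 and 1020 in V-K562 libraries and at 77, 68 and 69 in B-K562 libraries, 14.8-fold lower (log2 fold change -3.88, SE 0.10, limma-trend adjusted p = 2.9e-12). Among falls of all genes tested, that of CHAC1 ranked 87, PHGDH 422, ASNS 629 and TRIB3 1032. In G-K562 libraries CHAC1 was at 782, 593 and 950, all below the lowest V-K562 value of that table at 983. Relative to its mean, its spread there was the widest of the members. The log2 fold change against V-K562 was -0.51 (SE 0.15, adjusted p = 0.0090) and against B-K562 3.38 (SE 0.14, adjusted p = 3.4e-11), a 10.4-fold difference. The difference from V-K562 moved from -0.33 without G-K562 replicate 2 to -0.67 without G-K562 replicate 3, and without the variance trend in the fit its adjusted p was 0.054.

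ASNS (Entrez 440, chr7:97852117-97872542, minus strand), asparagine synthetase, was at 34776, 37789 and 39532 in V-K562 and at 8368, 8508 and 8677 in B-K562 libraries, 4.38-fold lower (log2 fold change -2.13, SE 0.05, limma-trend adjusted p = 1.9e-12). In G-K562 libraries it was at 33024, 31571 and 34027, under the lowest V-K562 value of that table at 35309. That difference of -0.21 (SE 0.07, adjusted p = 0.015) was within the threshold, but not without V-K562 replicate 2 (adjusted p = 0.056) or V-K562 replicate 3 (adjusted p = 0.063).

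**Figure D2:**
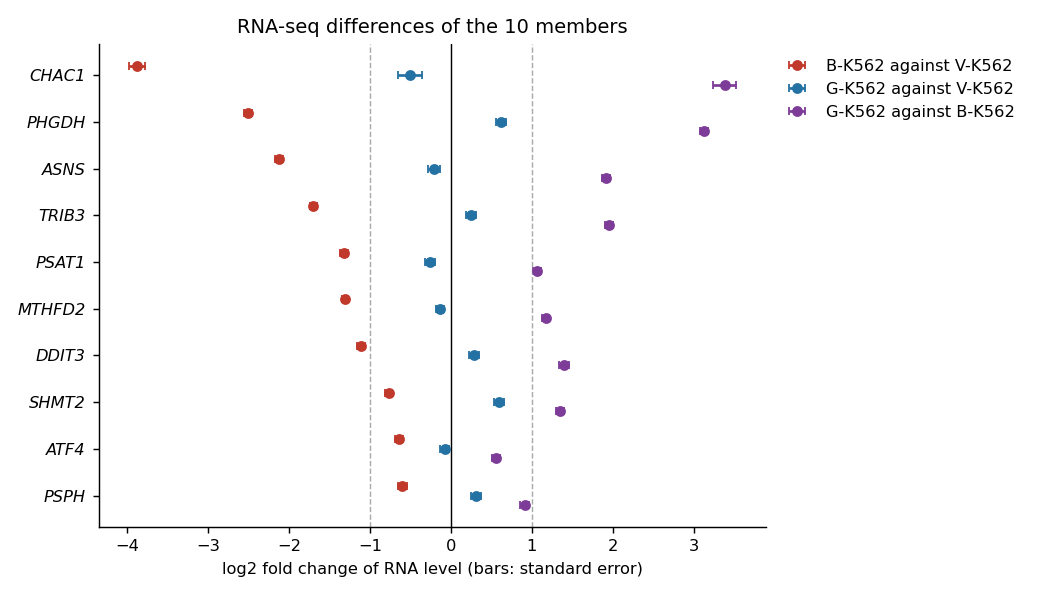
Log2 fold change of RNA level (horizontal axis) with its standard error for the 10 members, in B-K562 against V-K562, G-K562 against V-K562 and G-K562 against B-K562 cells. Dashed lines mark 2-fold. All B-K562 points lie left of 0, from -0.60 for PSPH to -3.88 for CHAC1, while the G-K562 points against V-K562 stay between -0.51 and 0.62.

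Serine is made from 3-phosphoglycerate in the order PHGDH, PSAT1 and PSPH, and the members of this pathway differed in how far they moved. PHGDH (Entrez 26227, chr1:119711737-119744226, plus strand), the dehydrogenase that commits carbon to the pathway, was at 12501, 12160 and 13697 in V-K562 and at 2235, 2275 and 2206 in B-K562 libraries, a 5.70-fold fall (log2 fold change -2.51, SE 0.05, limma-trend adjusted p = 3.6e-13). In G-K562 libraries PHGDH was at 19800, 19743 and 20361, beside 12693, 12346 and 13975 in V-K562, a rise of 0.62 (SE 0.06, adjusted p = 3.3e-06). G-K562 and B-K562 cells thus lay on either side of V-K562 cells, 8.77-fold apart (log2 fold change 3.13, SE 0.05, adjusted p = 1.6e-14).

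PSAT1 (Entrez 29968, chr9:78297075-78330093, plus strand), the aminotransferase that follows, was at 8527, 8084 and 7415 in V-K562 and at 3282, 3097 and 3237 in B-K562 libraries (log2 fold change -1.32, SE 0.05, limma-trend adjusted p = 1.5e-10). In G-K562 libraries, at 6621, 6835 and 6896, it was below the V-K562 values of 8658, 8208 and 7566 (log2 fold change -0.26, SE 0.06, adjusted p = 0.0024). PSAT1 and PHGDH therefore moved in the same direction in B-K562 cells and in opposite directions in G-K562 cells.

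PSPH (Entrez 5723, chr7:56010363-56051604, minus strand), the phosphatase of the last step, was the least expressed member per kilobase and fell least, from 1204, 1199 and 1154 in V-K562 to 827, 744 and 777 in B-K562 libraries (log2 fold change -0.60, limma-trend adjusted p = 6.0e-07). Its G-K562 values of 1506, 1421 and 1549 were above all V-K562 values of that table, 1223, 1217 and 1177 (log2 fold change 0.31, SE 0.06, adjusted p = 1.0e-03). PSPH has a pseudogene copy, and the authors kept uniquely mapped reads alone, so its level is uncertain.

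The mitochondrial enzymes SHMT2 and MTHFD2 pass the side chain carbon of serine to folate and oxidise it. SHMT2 (Entrez 6472, chr12:57229573-57234935, plus strand) was at 11549, 11930 and 12303 in V-K562 and at 7089, 6965 and 6991 in B-K562 libraries, 1.70-fold lower (log2 fold change -0.77, SE 0.04, limma-trend adjusted p = 2.8e-09). In G-K562 libraries it reached 18327, 17402 and 19025, beside 11726, 12112 and 12553 in V-K562, 1.50-fold higher (log2 fold change 0.59, SE 0.06, adjusted p = 3.4e-06).

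MTHFD2 (Entrez 10797, chr2:74198563-74215298, plus strand) was at 14779, 14374 and 14791 in V-K562 and at 6013, 5939 and 5800 in B-K562 libraries, 2.48-fold lower (log2 fold change -1.31, SE 0.04, limma-trend adjusted p = 2.1e-11). Its G-K562 values, 13904, 13549 and 13142, were just below those of V-K562 at 15005, 14594 and 15091. The log2 fold change of -0.14 (SE 0.05, adjusted p = 0.035) missed the threshold in 7 of 12 alternative fits, among them those without V-K562 replicate 1, 2 or 3 and without G-K562 replicate 1 or 3 (adjusted p from 0.053 to 0.14).

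Between G-K562 and V-K562 cells, no member was called at 2-fold, where 10.3% of all 15271 genes tested were lower and 8.81% higher. At the adjusted p-value of limma-trend alone, 4 members were lower (ASNS, PSAT1, MTHFD2 and CHAC1) and 5 higher (DDIT3, PHGDH, PSPH, SHMT2 and TRIB3), against 33.3% and 33.5% of all genes. The libraries did not overlap for these 9 members, as for 34.9% of all genes on the lower and 35.2% on the higher side. The count of 4 was 2 when V-K562 replicate 2 or 3 was left out, and also 2 without the variance trend. The members' median was 0.08 and that of all genes 0.00. Both comparisons with V-K562 use the same V-K562 libraries, so their values are given side by side and were not correlated.

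Set directly against B-K562 cells, G-K562 cells had higher RNA levels of all 10 members (limma-trend adjusted p at most 0.05), and 8 of them were at least 2-fold higher, the others being ATF4 and PSPH. Of all 15521 genes tested, 17.4% were higher by both criteria and 38.1% by the adjusted p-value, and 12.5% and 40.5% were lower. The libraries of the members did not overlap, as for 39.1% of all genes in this direction. The members' median of 1.38 compares with -0.02 for all genes. After CHAC1 and PHGDH, the largest differences were those of TRIB3 at 1.95 (3.86-fold), ASNS at 1.92 (3.79-fold), DDIT3 at 1.40 (2.63-fold) and SHMT2 at 1.35 (2.56-fold). MTHFD2 followed at 1.17, PSAT1 at 1.06 and PSPH at 0.91.

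The 5 genes whose pattern over the 9 libraries was most like that of ATF4 by Pearson's r of log2(value + 1), among 15520 genes, were HAX1 at 0.996, TPD52L1 at 0.994, and IL23A, KDF1 and CHAC1 at 0.991. The other members had r between 0.831 for SHMT2 and 0.988 for MTHFD2 and PSAT1, with ASNS at 0.983, TRIB3 at 0.962, DDIT3 at 0.947, PHGDH at 0.943 and PSPH at 0.885. SHMT2, PSPH, PHGDH, DDIT3 and TRIB3, the members whose RNA was raised in G-K562 over V-K562, thus had the lowest values. The 9 points share the 3 lines, so r mainly reflects the order of the line means and is given as a description.

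Beyond the members, 74 genes in 7 lists of the same pathway were examined, of which 72 passed the filter (SLC7A3 and GLDC did not). In B-K562 against V-K562 cells, 26 were called lower and 1 higher at 2-fold, beside 14.1% and 6.46% of all genes, and 50 were lower and 16 higher by adjusted p alone, beside 37.2% and 38.6%. In G-K562 against V-K562 cells the 2-fold calls were 4 lower and 7 higher, where 10.3% and 8.81% of all genes were called, so that the share called higher was near that of all genes. In G-K562 against B-K562 cells 3 were called lower and 28 higher, beside 12.5% and 17.4% of all genes. The medians were -0.43, -0.03 and 0.56. Among the genes named from these lists, AMT, STC2, ERN1 and NFE2L1 are not the largest change of their list and were chosen after their values were seen.

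Upstream of ATF4, none of the 6 genes for eIF2 alpha kinases and their opposing phosphatase subunits was called at 2-fold in any comparison. Of all genes, 14.1% were lower and 6.46% higher in B-K562 against V-K562 cells. In G-K562 cells 10.3% were lower and 8.81% higher against V-K562, and 12.5% and 17.4% against B-K562. At such shares a lack of calls among 6 genes says little. EIF2AK1, the heme-regulated kinase, was lower in both lines, by -0.40 in B-K562 (SE 0.05, limma-trend adjusted p = 2.7e-06) and by -0.76 in G-K562 cells (SE 0.05, adjusted p = 2.6e-07). EIF2AK3, which encodes PERK, the kinase of the endoplasmic reticulum, was lower in B-K562 cells by -0.72 (SE 0.07, adjusted p = 6.0e-07), and was at -0.10 (adjusted p = 0.26) in G-K562 cells. EIF2AK2, the kinase of double-stranded RNA, was higher in B-K562 cells by 0.27 (adjusted p = 0.0035), and EIF2AK4, or GCN2, the sensor of amino acid shortage, was at 0.04 in B-K562 cells (adjusted p = 0.58) and lower by -0.33 in G-K562 cells (adjusted p = 0.0016). Of 8 genes for eIF2 and its exchange factor eIF2B, EIF2B1 was called higher in B-K562 cells (1.05, adjusted p = 8.4e-10), beside 6.46% of all genes. EIF2S3 (-1.19) and EIF2B3 (-1.18) were called lower in G-K562 against V-K562 cells, beside 10.3% of all genes. EIF2B3 differed most between G-K562 and B-K562 cells, by -2.06 (SE 0.06, adjusted p = 6.8e-13). The call of EIF2B1, close to 2-fold, was lost without V-K562 replicate 3, and the count of higher calls in the lists rose to 2 when replicate 1 or 2 of that line was left out.

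The bZIP partners and related factors were a list of 10 genes with a median of -1.11 in B-K562 cells. There all were lower by adjusted p and 6 at 2-fold, beside 37.2% and 14.1% of all genes. In G-K562 against B-K562 cells all 10 were higher, 7 of them at 2-fold, beside 38.1% and 17.4% of all genes. ATF3, a stress-induced bZIP factor, was at 3536, 3498 and 3627 in V-K562 and at 1217, 1276 and 1177 in B-K562 libraries (log2 fold change -1.54, limma-trend adjusted p = 1.8e-11). NUPR1, a stress-induced chromatin protein, had the largest fall of this list, with 397, 417 and 685 in V-K562 and 47, 38 and 38 in B-K562 libraries (-3.54, SE 0.18, adjusted p = 9.8e-10). In G-K562 libraries NUPR1 was at 1485, 1720 and 1563, a rise of 1.69 over V-K562 cells (SE 0.17, adjusted p = 4.0e-06), and NFE2L1 was the other gene of the list called higher there, at 1.06. Of all genes, 8.81% were called higher in G-K562 against V-K562 cells. The G-K562 and B-K562 levels of NUPR1 were 37.4-fold apart (5.22, adjusted p = 2.6e-12).

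**Figure D3:**
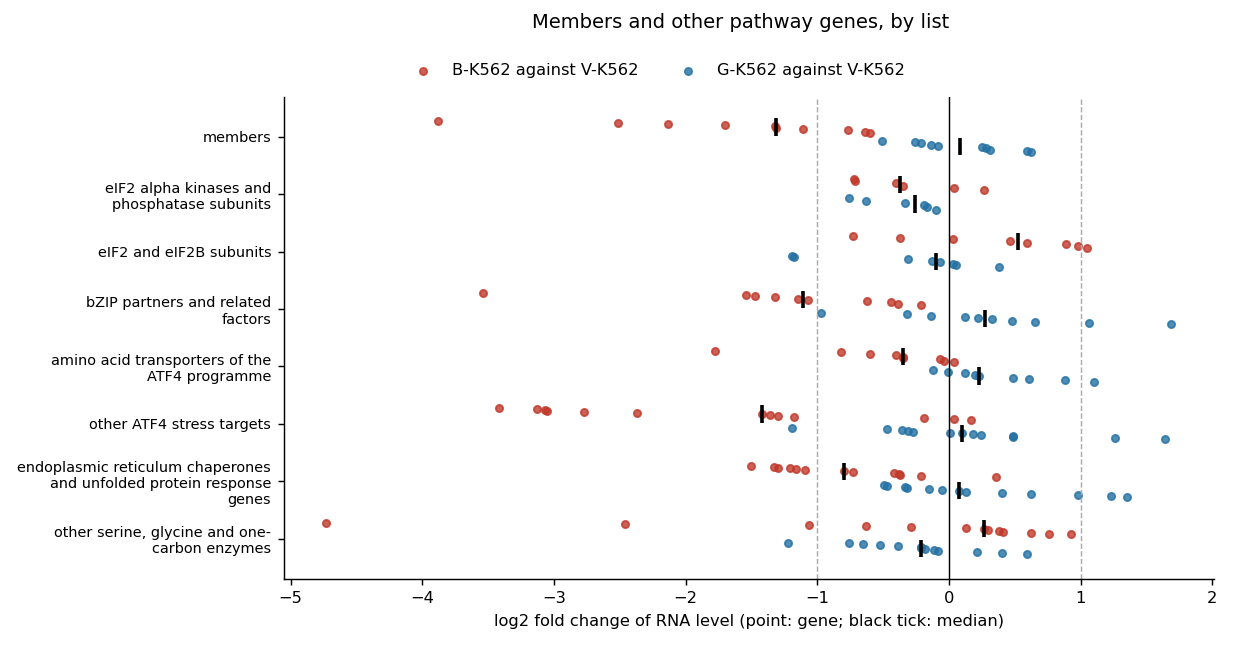
Log2 fold change of RNA level (horizontal axis) of each member and of each gene in the 7 pathway lists, in B-K562 (red) and G-K562 (blue) against V-K562 cells, with the median of each list as a black tick. The lists with medians under -1 in B-K562 cells are the members (-1.31), the bZIP partners (-1.11) and the other ATF4 stress targets (-1.42).

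The 13 other known ATF4 stress targets had a median of -1.42 in B-K562 cells. There 10 were called lower and none higher, beside 14.1% and 6.46% of all genes. GDF15, a secreted stress cytokine, fell most, from 8801, 7755 and 8916 in V-K562 to 744, 785 and 855 in B-K562 libraries (log2 fold change -3.42, SE 0.06, limma-trend adjusted p = 2.2e-13). Against V-K562, 2 of the 13 were called higher in G-K562 cells, VLDLR (1.64) and STC2 (1.26), and 1 lower, ALDH18A1 (-1.19), a proline synthesis enzyme. Of all genes, 8.81% were called higher and 10.3% lower in that comparison. VLDLR, a lipoprotein receptor, was low in all lines, at 95 to 105 in V-K562 libraries, 7 to 16 with wtBASP1 and 277 to 353 with BASP1-G2A (4.77 between the latter, SE 0.22, adjusted p = 9.8e-11).

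Amino acid transporters bring in building blocks and the cystine used for glutathione. Of 9 tested, 1 was called lower in B-K562 cells, SLC7A11, the cystine transporter (-1.78, SE 0.06, limma-trend adjusted p = 2.3e-11). Of all genes 14.1% were, so that the share called in this list was near that of all genes. The median was -0.35 in B-K562 and 0.23 in G-K562 cells against V-K562. The SLC7A11 values were 5458, 4838 and 4716 in V-K562, 1432, 1426 and 1519 in B-K562 and 4698, 4812 and 4485 in G-K562 libraries. SLC7A5, a carrier of large neutral amino acids, was at -0.07 in B-K562 cells (adjusted p = 0.19) and was the 1 transporter called higher in G-K562 cells against V-K562 (1.10, SE 0.08, adjusted p = 2.7e-07). That share, too, was near that of all genes, of which 8.81% were called higher there. Between G-K562 and B-K562 cells the largest difference was that of SLC43A1 at 1.69.

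Of 13 endoplasmic reticulum chaperone and unfolded protein response genes, 6 were called lower in B-K562 cells, beside 14.1% of all genes. The largest fall was that of HERPUD1 (-1.50, SE 0.05, limma-trend adjusted p = 3.0e-11), a membrane protein of protein degradation at the endoplasmic reticulum. In G-K562 cells 2 were called higher, SEL1L (1.35) and ERN1 (1.23), which serve degradation and stress sensing there. Of all genes, 8.81% were called higher in that comparison. SEL1L also had the largest difference between G-K562 and B-K562 cells, at 2.65 (SE 0.07, adjusted p = 3.4e-13).

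The other serine, glycine and one-carbon enzymes had calls in few genes. Of 13 tested, 3 were called lower in B-K562 cells (14.1% of all genes were), ALDH1L1 (-4.73), AMT (-2.46) and FTCD (-1.06). None was called higher, and the median was 0.27. By adjusted p alone 5 were lower and 8 higher, where 37.2% and 38.6% of all genes were, so that the share of lower genes was near that of all genes. ALDH1L1, a cytosolic folate dehydrogenase, was at 175, 201 and 232 in V-K562, 6, 8 and 6 in B-K562 and 108, 119 and 136 in G-K562 libraries, so that its B-K562 values rest on few reads. FTCD was the 1 gene of the list called lower in G-K562 cells (-1.22, SE 0.14, adjusted p = 1.5e-05, limma-trend). Of all genes 10.3% were called lower in that comparison, so that the share in the list was near that of all genes.

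Chromatin accessibility was examined in 30 merged ATAC-seq regions that lay within 5 kb of a member, out of 85549 in all. Their value is the summit pileup, the number of tags stacked at the peak summit, after the authors brought all libraries to equal tag numbers. Peaks were called in each library alone, 47111 to 55570 intervals per library. The mean pileup over intervals was 40.3 to 40.9 in V-K562 libraries, 47.4 to 47.8 with wtBASP1 and 50.7 to 52.3 with BASP1-G2A, so values were rescaled by a trimmed mean before testing and a library without a peak was set to a floor of 17 tags. A peak was present in all 9 libraries in 17 of the 30 regions, and 24 could be tested in at least 1 comparison.

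At the starts of the members, accessibility in B-K562 cells showed no fall like that of the RNA. All 10 members had a region within 500 bp of an annotated start with a peak in all 9 libraries, 12 such regions in all, and none was called at 2-fold in B-K562 against V-K562 cells, where 6.16% of all 52204 regions tested were lower and 1.53% higher. By adjusted p alone 3 were higher and none lower, against 8.57% and 16.6% of all regions, and 18.4% and 3.25% of those at gene starts. Their median log2 fold change was 0.16, that of all 11140 regions at gene starts 0.22, and that of all regions -0.06.

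The region at the CHAC1 start (chr15:40952851-40953602) had summit pileups of 93, 58 and 68 in V-K562, 58, 71 and 55 in B-K562 and 69, 91 and 89 in G-K562 libraries. These ranges overlapped, and its log2 fold change in B-K562 cells was -0.38 (SE 0.21, limma-trend adjusted p = 0.21), beside -3.88 for the RNA. The ASNS start region (chr7:97871991-97872737) was at 193, 179 and 189 in V-K562 and at 231, 217 and 200 in B-K562 libraries, a rescaled difference of 0.05 (SE 0.09, adjusted p = 0.67). The PHGDH start region (chr1:119711712-119712075) was among the weakest, at 32, 29 and 33 in V-K562 and 43, 44 and 37 in B-K562 libraries (0.24, SE 0.20, adjusted p = 0.40).

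Of the start regions that were higher in B-K562 cells, that of DDIT3 (chr12:57520095-57521090) was at 144, 154 and 158 in V-K562 and at 224, 250 and 231 in B-K562 libraries (0.47, SE 0.09, limma-trend adjusted p = 0.0074), while its RNA was lower. With the mean in place of the summit pileup that call was lost (adjusted p = 0.15). The PSPH start region (chr7:56051217-56051977), shared with the start of CCT6A on the other strand, was at 152, 175 and 185 in V-K562 and at 302, 310 and 307 in B-K562 libraries (0.69, SE 0.09, adjusted p = 0.0025). The PSAT1 region (chr9:78296814-78297430) was at 0.50 (SE 0.14, adjusted p = 0.037), a call lost when any 1 of the 6 libraries was left out (adjusted p from 0.053 to 0.12). At TRIB3, both start regions had negative values, -0.44 (SE 0.15, adjusted p = 0.063) for chr20:380555-381148, which holds the 3 repeats of the element, and -0.61 (SE 0.21, adjusted p = 0.067) for chr20:381688-382268 in an intron. Member start regions had GC contents of 53.8% to 68.0%, and with a further scaling within bins of GC content, chosen after seeing the data, both TRIB3 regions passed the threshold (-0.67, adjusted p = 0.025, and -0.83, adjusted p = 0.027), as did the upstream DDIT3 region chr12:57522078-57523016 (-0.58, adjusted p = 0.010, beside -0.35, adjusted p = 0.056). The PSAT1 region then did not (0.27, adjusted p = 0.23). Under that scaling 3 of the 12 start regions were lower by adjusted p and 2 higher. Of all gene-start regions, 3.82% were lower and 6.45% higher in this way. Both DDIT3 regions were also within 5 kb of MBD6 and MIR616, and the nearer one, chr12:57520095-57521090, also of MARS.

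**Figure D4:**
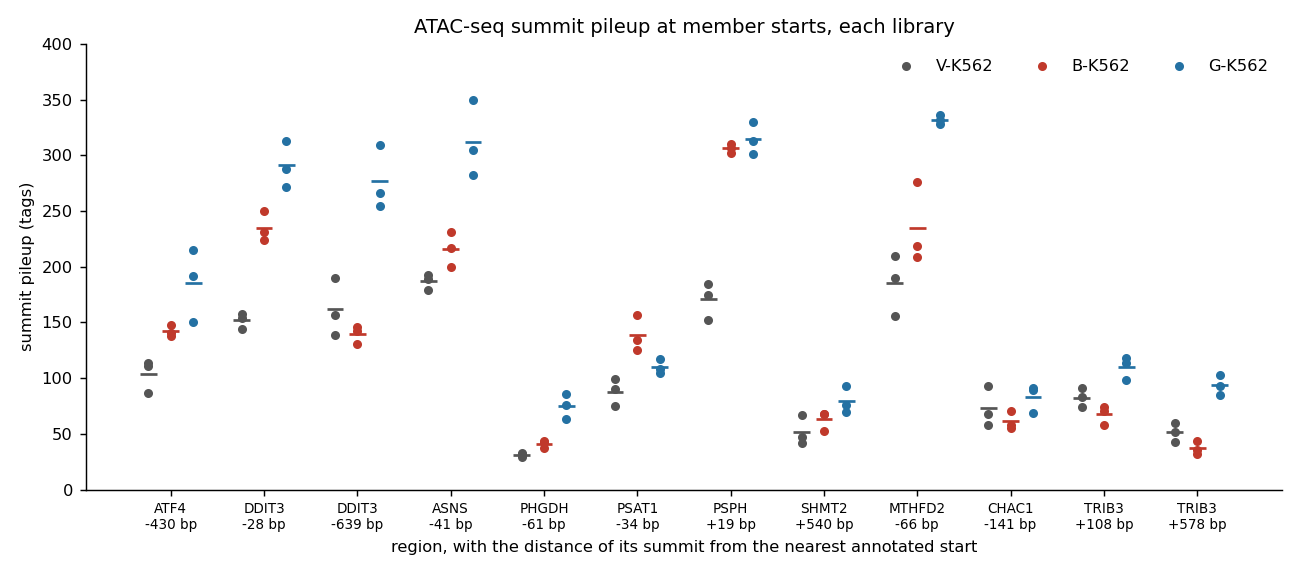
ATAC-seq summit pileup as deposited (vertical axis, tags, from 0) in each library at the 12 regions at member starts, with the distance of the summit from the nearest start under each name and the mean of each line as a bar. G-K562 libraries are highest at most starts, such as ASNS at 282 to 350 and PHGDH at 63 to 86. These values are before rescaling, and the mean pileup over all intervals was also higher in B-K562 and G-K562 than in V-K562 libraries.

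With BASP1-G2A, 8 of the 12 start regions were higher relative to V-K562 by adjusted p (limma-trend, threshold 0.05), none lower and none 2-fold. Of all 54213 regions tested, 16.1% were higher and 25.9% lower in this way, and of all gene-start regions 38.0% were higher. With scaling within GC bins 2 were left, the nearer one of DDIT3 (0.37, adjusted p = 0.0069) and that of PHGDH (1.04, adjusted p = 0.0032). Under that scaling 16.6% of all gene-start regions were higher, so that 2 of 12 was near the share of all. Without GC bins, the median of the 12 was 0.45 and that of all 11445 regions at gene starts 0.31. PHGDH had the largest difference, with 76, 63 and 86 in G-K562 libraries (0.88, SE 0.17, adjusted p = 0.0048). For PHGDH, and for DDIT3 at its nearer region, RNA and accessibility were thus both higher in G-K562 cells under either scaling. The upstream DDIT3 region was at 0.43 (limma-trend adjusted p = 0.035), but at 0.09 with GC bins (adjusted p = 0.61). Of the 4 members whose RNA was lower in G-K562 cells, PSAT1 and CHAC1 had start regions at -0.02 (adjusted p = 0.93) and -0.14 (adjusted p = 0.62). The start regions of the others, ASNS and MTHFD2, were higher, at 0.39 (limma-trend adjusted p = 0.011) and 0.50 (adjusted p = 0.014). With GC bins these 2 did not pass (adjusted p = 0.17 and 0.20). Between G-K562 and B-K562 cells 5 start regions were higher by adjusted p, where 13.6% of all gene-start regions were higher and 7.92% lower, those of ASNS (0.32), PHGDH (0.63), the upstream one of DDIT3 (0.77) and both of TRIB3 (0.49 and 1.11), and that of PSAT1 was lower (-0.53, limma-trend adjusted p = 0.014). The calls of ASNS (without B-K562 replicate 3 or G-K562 replicate 3, adjusted p = 0.069 and 0.056), PHGDH (without G-K562 replicate 3, 0.057) and the TRIB3 region at 0.49 (without B-K562 replicate 3 or G-K562 replicate 1 or 3, 0.057 to 0.068, or with GC bins, 0.086) were lost in these limma-trend fits. That of PSAT1 was lost without scaling (adjusted p = 0.075) and with the mean pileup (adjusted p = 0.14).

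The start region of ATF4 (chr22:39519698-39520392), which is also within 5 kb of MIEF1, was at 87, 111 and 114 in V-K562, 148, 141 and 138 in B-K562 and 192, 150 and 215 in G-K562 libraries. Its rescaled difference from V-K562 was 0.31 in B-K562 (SE 0.12, limma-trend adjusted p = 0.087) and 0.48 in G-K562 cells (SE 0.15, adjusted p = 0.033). The latter call was lost without any 1 of the V-K562 libraries or G-K562 replicate 1 or 3 (limma-trend adjusted p from 0.057 to 0.11). The region at the MTHFD2 start (chr2:74198231-74199382) was at 210, 156 and 190 in V-K562, 276, 209 and 219 in B-K562 and 336, 332 and 328 in G-K562 libraries, and only the last did not overlap V-K562 (0.50, SE 0.12, adjusted p = 0.014, but 0.051 without G-K562 replicate 2). That of SHMT2 (chr12:57229475-57230398) was at 42, 67 and 47 in V-K562, 68, 53 and 68 in B-K562 and 76, 70 and 93 in G-K562 libraries, and passed the test in neither line (0.14, adjusted p = 0.64, and 0.28, adjusted p = 0.28).

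**Figure D5:**
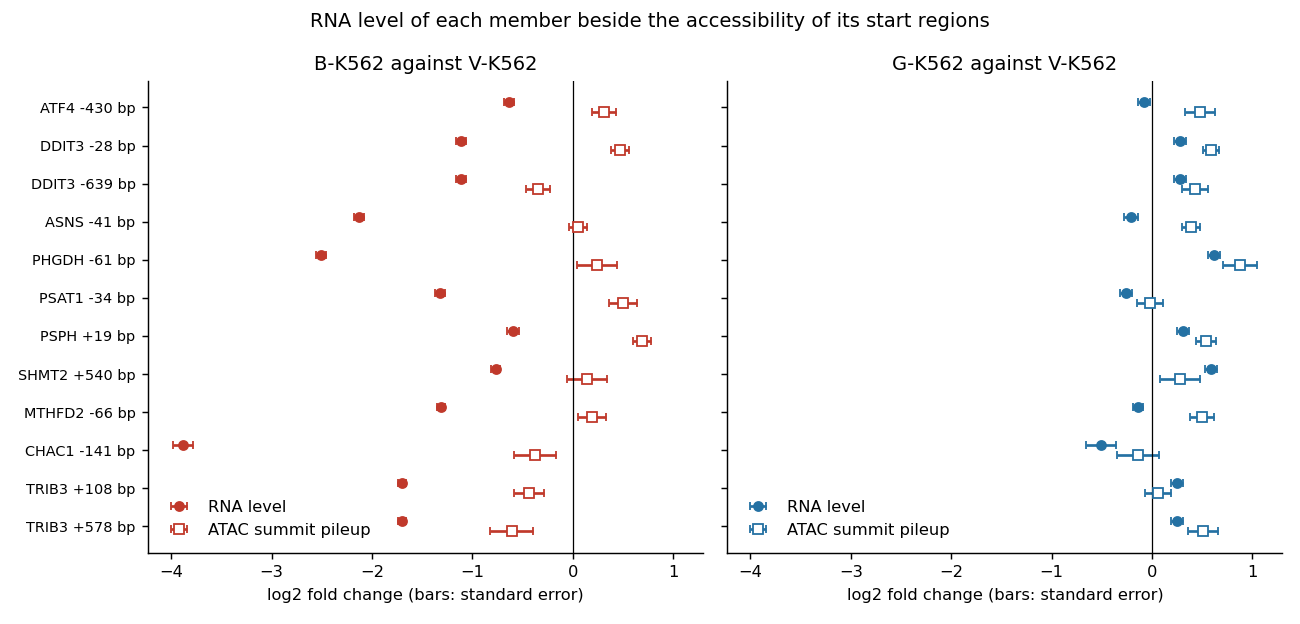
Log2 fold change (horizontal axes) of RNA level (filled circles) and of summit pileup at the 12 start regions (open squares) with standard errors, in B-K562 and G-K562 against V-K562 cells. In the B-K562 panel the RNA points reach -3.88 while the start regions lie between -0.61 and 0.69.

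The 2-fold calls over all tested regions of the members, with the 12 start regions included, are given beside the shares over all regions. In B-K562 against V-K562 cells, 1 of 22 tested was called lower and 1 higher, against 6.16% lower and 1.53% higher over all regions. In G-K562 against V-K562 cells it was also 1 of 22 each, against 13.1% lower and 2.91% higher over all regions. In G-K562 against B-K562 cells, 2 of 24 were called lower and 4 higher, the latter including the TRIB3 start region in an intron. Of all 60181 regions tested, 8.50% and 4.37% were, so that the share of members' regions called lower was near that of all. By adjusted p alone 3 were lower and 9 higher, against 15.4% and 12.7%, and these counts include the 1 lower and 5 higher start regions already named.

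The region that was lower in B-K562 cells lies downstream of TRIB3 (chr20:401804-402378) and also holds a match to the element (chr20:402100-402107). It had summit pileups of 53, 47 and 45 in V-K562 and 72, 75 and 86 in G-K562 libraries, and no peak was called in any B-K562 library. Its log2 fold change, with B-K562 at the floor, was -1.53 (SE 0.19, limma-trend adjusted p = 0.0023), and G-K562 was above B-K562 by 1.93 (SE 0.16, adjusted p = 2.4e-05). The TRIB3 intron region named above was also higher in G-K562 against B-K562 cells, at 93, 85 and 103 against 36, 44 and 32 (1.11, SE 0.17, adjusted p = 8.3e-04). At TRIB3 the RNA and both of these regions had their lowest mean in B-K562 and their highest in G-K562 libraries. The V-K562 values of the intron region, 43, 60 and 52, overlapped those of B-K562, and the downstream region did not pass the test between G-K562 and V-K562 (0.33, adjusted p = 0.11).

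At PHGDH, the exon region that holds the element (chr1:119712608-119712998) was at 59, 42 and 65 in V-K562, 40, 31 and 36 in B-K562 and 126, 111 and 120 in G-K562 libraries. It was called higher in G-K562 against B-K562 cells (1.51, SE 0.18, limma-trend adjusted p = 2.0e-04). Against V-K562 it was lower by -0.75 in B-K562 cells (SE 0.23, adjusted p = 0.043, a call lost without V-K562 replicate 1 or 3 or any 1 of the B-K562 libraries) and higher by 0.77 in G-K562 cells (SE 0.18, adjusted p = 0.012), the same order as the RNA. A region in a PHGDH intron (chr1:119737137-119737680) went the other way. It was at 117, 110 and 91 in V-K562, 130, 133 and 109 in B-K562 and 49, 58 and 45 in G-K562 libraries, so that G-K562 against V-K562 was at -1.39 (SE 0.17, adjusted p = 7.5e-04) and against B-K562 at -1.48 (SE 0.15, adjusted p = 8.1e-05), while PHGDH RNA was highest in G-K562 cells.

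A region downstream of ATF4 (chr22:39523387-39523748) had peaks of 60, 66 and 61 tags in the B-K562 libraries, of 63 tags in G-K562 replicate 3, and none in the V-K562 libraries (1.74 for B-K562 against V-K562, SE 0.19, limma-trend adjusted p = 0.0018). Downstream of SHMT2 and also within 5 kb of NDUFA4L2, a region (chr12:57235195-57235510) had peaks in the G-K562 libraries alone, at 68, 65 and 62 tags, and was higher than in V-K562 by 1.70 (SE 0.16, adjusted p = 3.4e-04). For such regions the fold depends on the floor, and a library without a called peak may hold tags below the peak caller's limit.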

How the data were processed

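For each assay 3 libraries per line were analysed, grouped by the sample titles. RNA libraries were made with a stranded mRNA kit. The authors aligned them to GRCh38 by STAR, dropped duplicates as well as multiply mapped reads and those with over 2 mismatches, and used Subread for counts per RefSeq gene. The deposited RNA-seq values are scores, being such counts after DESeq2 normalization by the authors, as whole numbers. They come as 1 table of B-K562 with V-K562 and 1 of G-K562 with V-K562. ATAC-seq reads were aligned by the authors with BWA-MEM and libraries brought to equal tag numbers, MACS2 called peaks in each library, and the deposited signal is the pileup of tags at each peak. Tool versions were not given in the sources used here, and columns holding the authors' fold changes, p-values and means were not used.

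Because these are not raw counts, limma-trend (limma 3.58.1, R 4.3.3) was run on log2(value + 1) for every gene that reached 10 in 3 or more libraries, with Benjamini-Hochberg adjustment over all of them. This scale understates the change of low genes. The threshold for calls was an adjusted p of 0.05, with a change of 2-fold where stated. For G-K562 against B-K562, values of the B-K562 libraries were brought to the other table's scale by a factor of 1.017 (the V-K562 values of the tables differ by 1.0153, 1.0153 and 1.0203 in replicates 1, 2 and 3) and all 9 libraries were fitted. ATAC-seq intervals that overlapped were merged and each region took its highest summit pileup, scaled by a trimmed mean, with values absent or under 17 set to 17. Regions with a peak in at least 3 libraries were tested in the same way. Coordinates are 1-based GRCh38, and gene coordinates are those of the deposited tables. Scripts were tested on simulated data, and ran under Python 3.11.15 (pandas 2.3.3, numpy 2.4.6, matplotlib 3.10.9).

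The members, gene lists and tests were chosen with earlier results of these data known. Some markers of the planned lists are not reported here. Named are all members, the largest called rise and fall of each list, the 4 eIF2 alpha kinases, ATF3 and SLC7A11, called and start regions, and the 5 genes most like ATF4. AMT, STC2, ERN1 and NFE2L1 were named outside this rule. Alternatives were another pseudocount, other filters, trimmed-mean scaling of RNA values, no variance trend, each library left out, the replicate number as a block, and for ATAC-seq other floors, scalings, windows and the mean pileup.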

Additional observations from a re-analysis of the deposited data

Results flagged for a closer look

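DDIT3, PHGDH, PSPH, SHMT2 and TRIB3 were lower in all 3 B-K562 libraries and higher in all 3 G-K562 libraries than in the V-K562 libraries of the same table. The log2 difference of G-K562 from B-K562 cells was 1.40 for DDIT3, 3.13 for PHGDH, 0.91 for PSPH, 1.35 for SHMT2 and 1.95 for TRIB3. Since these members were picked for lying on either side of V-K562, the direction of that difference was fixed by the choice, and the opposite sign was not tested. By limma-trend adjusted p, 38.1% of all genes tested were higher in G-K562 against B-K562 cells. Without overlap with the V-K562 libraries, 38.1% of all genes were lower in B-K562 cells and 35.2% higher in G-K562 cells. The share of all genes that met both of these at once was not counted. No cause was tested.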

How the results depend on the processing

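All 30 log2 fold changes of the members' RNA (10 members in 3 comparisons) kept their sign under every alternative run. In B-K562 against V-K562 cells the count of members lower at 2-fold stayed at 7 and the count by adjusted p at 10, with each library left out (7 to 7 and 10 to 10) and with the replicate number as a block (7 and 10). Deviations of same-numbered libraries were weakly correlated, from -0.08 to 0.136 over RNA-seq pairs and from 0.007 to 0.122, all positive, over ATAC-seq pairs. With 3 libraries per line this cannot show whether same-numbered libraries were prepared together. The block is therefore given as an alternative fit and not as a known pairing. The block moved the count of members lower in G-K562 cells by adjusted p from 4 to 3 and that of regions lower there from 2 to 1. Without the variance trend the former count was 2, and with libraries left out 2 to 4. The count of pathway genes called higher in B-K562 cells, 1, ran from 0 to 2 with libraries left out.

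The counts of accessible regions near members were small and less stable. Regions called lower in B-K562 cells, 1, became 0 where a peak in every library was required and 2 within 10 kb, and those called higher, 1, became 0 with a peak in every library. By adjusted p alone the 2 lower regions became 1 without scaling, 6 with scaling within GC bins, 6 within 10 kb and 1 to 2 with libraries left out, and the 4 higher became 2 with the mean pileup. In G-K562 against V-K562 cells the 1 region called lower became 2 with a floor of 10 tags, and the 1 called higher became 3 without scaling, 0 with a peak in every library, 2 with GC bins and 1 to 2 with libraries left out. By adjusted p the 2 lower became 1 without scaling, with a peak in every library, with the mean pileup or with GC bins, and 1 to 3 with libraries left out, and the 11 higher became 6 with GC bins and 7 to 10 with libraries left out. In G-K562 against B-K562 cells the 2 called lower became 1 without scaling, with a peak in every library or with the mean pileup, and 1 to 2 with libraries left out, and the 4 called higher became 2 with a peak in every library. The 3 lower by adjusted p became 1 without scaling or with the mean pileup. A stricter or wider choice of regions changes the number tested, and for the other changes the cause was not tested. The scaling within GC bins was chosen after seeing the data.

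The rounded values carry no depth, each line is a single selected pool, and 3 libraries per line limit the precision. Values of ATAC-seq libraries without a called peak are a floor and not a measurement.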
